A study of Mus musculus with 24 samples.

Results

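The 6 genes described here encode the platelet-derived growth factors (PDGF) and their receptors in the mouse: the ligands Pdgfa, Pdgfb, Pdgfc and Pdgfd and the receptors Pdgfra and Pdgfrb. They were found by gene symbol among the 56205 genes of a table of RNA-Seq read counts from whole liver, and all 6 had enough counts to be tested. The 24 libraries came from C57BL/6J mice of both sexes kept for 20 weeks on 1 of 2 diets, which were started at 8 to 10 weeks of age. High-fat diet libraries (n = 12) were from mice fed palm oil, fructose and cholesterol, and control diet libraries (n = 12) were from mice fed its matched control diet. The labels name no transgene, deletion or drug in either group. The labels do not state that each library is a different mouse, so p-values measure the spread between these libraries. The diet model produces fatty liver with fibrosis in mice and is used as a model of human metabolic liver disease, with the limit that a diet in an inbred strain stands for the condition.

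PDGF ligands are secreted dimers that bind receptor tyrosine kinases on mesenchymal cells and drive their division, migration and survival. PDGF-A and PDGF-B are secreted in active form, whereas PDGF-C and PDGF-D carry a CUB domain that a protease has to cut off first. In injured liver, the beta receptor on hepatic stellate cells, the vitamin A-storing cells that become collagen-producing myofibroblasts, is a known driver of scar formation, and PDGF-B is its best described ligand.

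The sequences below are the 250 bases before the RefSeq transcription start of the members whose start regions hold no annotated exon, printed so that the start regions of PDGF genes with a higher mean on the high-fat diet can be compared. They are given on the plus strand of GRCm38.p6, 5′ to 3′, at chr3:81036166-81036415 for Pdgfc, chr9:6168236-6168485 for Pdgfd and chr5:75152001-75152250 for Pdgfra. Capitals mark the TATAAA match, which was found in Pdgfd only, 160 bases before the start.
Pdgfc: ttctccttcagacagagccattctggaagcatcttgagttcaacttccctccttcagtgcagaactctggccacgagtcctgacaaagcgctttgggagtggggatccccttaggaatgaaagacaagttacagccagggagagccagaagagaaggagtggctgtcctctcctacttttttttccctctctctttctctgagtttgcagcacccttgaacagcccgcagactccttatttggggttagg
Pdgfd: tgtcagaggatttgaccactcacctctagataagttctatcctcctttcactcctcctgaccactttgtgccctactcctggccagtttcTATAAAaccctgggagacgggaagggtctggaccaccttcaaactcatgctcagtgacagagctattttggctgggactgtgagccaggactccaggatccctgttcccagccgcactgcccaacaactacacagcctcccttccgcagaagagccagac
Pdgfra: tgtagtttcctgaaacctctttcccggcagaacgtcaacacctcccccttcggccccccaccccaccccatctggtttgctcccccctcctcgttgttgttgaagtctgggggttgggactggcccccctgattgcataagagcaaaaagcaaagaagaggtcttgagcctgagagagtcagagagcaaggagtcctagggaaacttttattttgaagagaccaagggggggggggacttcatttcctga
Both strands were searched for 4 promoter motifs. TATAAA, the core of the TATA box, stands in 12.4% of 32851 mouse promoter windows of the same length. The AP-1 motif TGANTCA (6.75% of windows), the EGR motif GCGNGGGCG (4.7%) and the SP/KLF motif GGGCGG (32.7%) were not found in these 3 windows. The 2 windows of Pdgfa, not printed because they overlap annotated exons, held 1 and 2 matches of the SP/KLF motif. GC content was 50.8% for Pdgfc, 53.6% for Pdgfd and 54.4% for Pdgfra, against a median of 52.4% over all windows. A match or its absence says only whether these letters are in the window, and use of the Pdgfd match as a TATA box was not tested.

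Total counts ranged from 14468418 to 22112552 per library. Hepatocyte markers made the tissue label plain, with Alb alone holding 3.25% to 9.02% of the counts of a library. Of all 17913 genes tested, 2372 (13.2%) were called higher and 894 (4.99%) lower on the high-fat diet, or 18.2% in either direction, where a call is an adjusted p of at most 0.01 with an absolute log2 fold change over 0.5 in edgeR's quasi-likelihood test. Levels are given as CPM, the read count of a gene scaled to a fixed library size, after TMM scaling, a method that sets the libraries to a common level from genes that change little. The libraries also fell into 2 sets. Replicates 1 to 6 of both diets held 2664 to 6285 counts of Xist, the RNA that coats the inactive X chromosome in female cells, and replicates 7 to 12 held 0 to 3. The sex of a library is not in the labels, so the sets are named here by Xist above or below 1000 counts, and whatever else differed between replicates 1 to 6 and 7 to 12 cannot be told apart from it. High-fat replicate 9 was the highest library for all 6 genes, and control replicate 11 was the highest control for Pdgfb, Pdgfc and Pdgfrb. Control replicate 10 had the lowest depth and the lowest scaling factor, 0.679. Leaving out these 3 libraries left 5 of 6 genes called higher.

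All 6 PDGF genes had a higher mean on the high-fat diet, by 1.87-fold to 3.47-fold. Ligands Pdgfa, Pdgfb and Pdgfc and both receptors were called higher, 5 of 6 genes against 13.2% of all genes tested. None was called lower, and Pdgfd missed the adjusted p. All 6 had an unadjusted p under 0.05 in the edgeR fit. DESeq2 called 6 genes higher, limma-voom called 5, and neither called any lower. No gene separated the diets without overlap, a pattern that 1.48% of all genes tested showed. In whole liver, more cells of a type and more RNA per cell cannot be told apart.

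**Figure D1:**
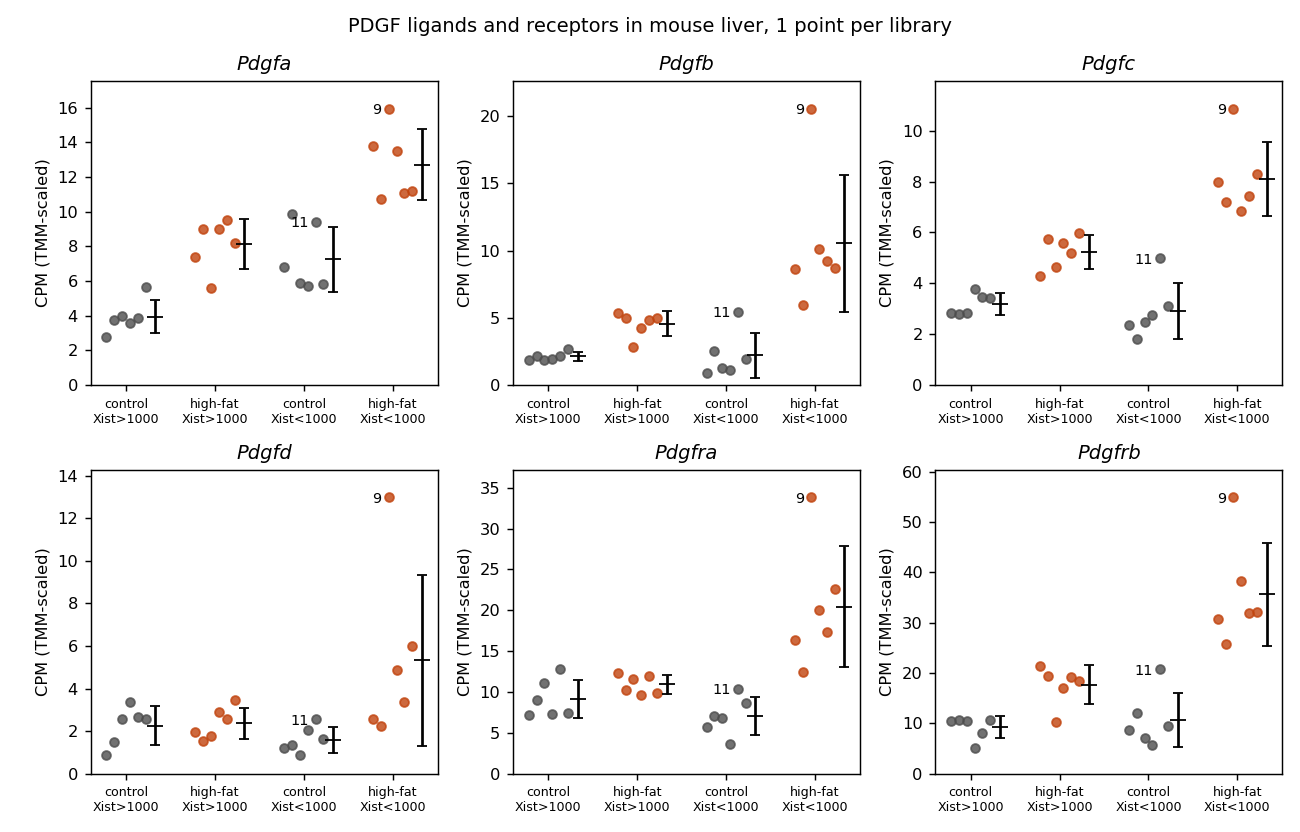
Each panel plots 1 PDGF gene, with CPM after TMM scaling on a linear vertical axis from 0, 1 point per library and the mean ± SD of each 6 libraries at the right of the points. High-fat replicate 9, marked 9, is the highest point in every panel, and control replicate 11, marked 11, reaches the range of the high-fat libraries with Xist above 1000 counts in every panel.

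Pdgfb, whose protein binds both receptors, had the largest rise of the 6 genes. Its level on the control diet was 0.919 CPM in the lowest library, 1.94 CPM at the median and 5.44 CPM in the highest. The high-fat libraries ran from 2.82 CPM through a median of 5.67 CPM to 20.5 CPM. All 12 high-fat libraries lay above every control library except control replicate 11, and 6 of 12 lay above that library too. The log2 fold change was 1.80 (SE 0.29, adjusted p = 2.99e-05, edgeR). These levels rest on 11 to 96 counts per control library and 53 to 486 per high-fat library.

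Pdgfa, which signals through the alpha receptor, was at 2.75 CPM in the lowest control library, 5.69 CPM at the median and 9.84 CPM in the highest. High-fat libraries ran from 5.60 CPM to 15.9 CPM with a median of 10.1 CPM. The diets overlapped widely, since 6 of 12 high-fat libraries were above the highest control. Its log2 fold change of 0.90 (SE 0.19, adjusted p = 0.000635, edgeR) was the smallest of the 6. Part of the overlap went with the 2 sets of libraries. Within the control diet, Pdgfa was 3.94 ± 0.960 CPM (SD, n = 6) with Xist above 1000 counts and 7.25 ± 1.89 CPM (SD, n = 6) with Xist below. The highest library of the first set (5.68 CPM, replicate 6) nearly met the lowest of the second (5.70 CPM, replicate 10). Replicate 6 had 123 of 21546177 counts and replicate 10 had 56 of 14468418, so this narrow gap rests on the low scaling factor of replicate 10. The difference between the sets of 0.88 on the log2 scale had an adjusted p of 0.001106 in edgeR. It was called, as were 2.24% of all genes in that direction, and no other PDGF gene differed by a called amount between the sets on the control diet. The high-fat libraries of the 2 sets did not overlap for Pdgfa, at 5.60 to 9.54 CPM against 10.7 to 15.9 CPM, although the adjusted p there was 0.010018 (log2 difference 0.65, edgeR). The share of all genes without overlap between the sets was not computed.

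Pdgfc, a latent ligand of the alpha receptor, had the smallest standard error of the 6 genes. The control libraries gave 1.83 CPM, 2.84 CPM and 4.98 CPM as lowest, median and highest. The high-fat libraries gave 4.27 CPM, 6.41 CPM and 10.9 CPM. All 12 high-fat libraries were above the second highest control and 10 of them were above the highest, control replicate 11. The log2 fold change was 1.13 (SE 0.15, adjusted p = 5.61e-06, edgeR).

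Pdgfd, the latent ligand of the beta receptor, had the lowest counts, 15 to 62 per control library and 30 to 307 per high-fat library. Its control values were 0.863 CPM, 1.84 CPM and 3.39 CPM at the lowest, median and highest library, and its high-fat values were 1.56 CPM, 2.73 CPM and 13.0 CPM. Most libraries of the diets overlapped, with 4 of 12 high-fat libraries above the highest control. The log2 fold change of 0.998 (SE 0.31) had an adjusted p of 0.0135 in edgeR and was not called. Without high-fat replicate 9, the highest library at 13.0 CPM, the log2 fold change was 0.66 with an adjusted p of 0.039981. DESeq2 gave 1.02 with an adjusted p of 0.004456, which passes.

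Pdgfra, the receptor that PDGF-A and PDGF-C bind, marks stellate cells and other fibroblasts of the liver. Control libraries ran from 3.67 CPM to 12.9 CPM with a median of 7.35 CPM, and high-fat libraries from 9.61 CPM to 33.8 CPM with a median of 12.4 CPM. Only 5 of 12 high-fat libraries were above the highest control, and 9 were above the second highest. The log2 fold change was 0.95 (SE 0.20, adjusted p = 0.000613, edgeR).

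Pdgfrb, the receptor for PDGF-B and PDGF-D on stellate cells and pericytes, had the highest mean level of the 6 per length on both diets. On the control diet it was above Pdgfa per length in only 6 of 12 libraries (exact sign-flip test, adjusted p = 0.857). Control libraries of Pdgfrb ran from 5.14 CPM to 20.8 CPM around a median of 9.95 CPM. High-fat libraries ran from 10.3 CPM to 54.9 CPM with a median of 23.7 CPM. Control replicate 11 was the highest control, and 11 of 12 high-fat libraries lay above every other control. Its log2 fold change was 1.42 (SE 0.23, adjusted p = 2.82e-05, edgeR).

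Set side by side per kilobase of annotated exon, the order of the genes differed between the diets. Control livers had Pdgfrb (1.82 CPM per kilobase) and Pdgfa (1.79) at the top, followed by Pdgfra (0.807), Pdgfd (0.612), Pdgfc (0.600) and Pdgfb (0.519). Of these neighbours only Pdgfa and Pdgfra differed beyond the spread over libraries, with Pdgfa higher in 11 of 12 (exact sign-flip test, adjusted p = 0.003255 over 10 neighbour pairs). The neighbours were picked by the same means, and the test does not measure error in the exon lengths, 3119 bases for Pdgfa and 10024 for Pdgfra. Before division by length Pdgfra had the higher control mean, 8.09 against 5.59 CPM. In high-fat livers the order of CPM per kilobase was Pdgfrb (4.87), Pdgfa (3.34), Pdgfb (1.81), Pdgfra (1.56), Pdgfc (1.31) and Pdgfd (1.22). There Pdgfrb exceeded Pdgfa, and Pdgfa exceeded Pdgfb, in 12 of 12 libraries (exact sign-flip test, adjusted p = 0.002441 for each), and the other neighbours did not differ beyond their spread (adjusted p from 0.113 to 0.275). By mean, Pdgfb stood lowest of the 6 on the control diet and behind only Pdgfrb and Pdgfa on the high-fat diet.

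The receptors were then compared with each other inside each library, where the scaling of libraries plays no part. The log2 ratio of Pdgfra to Pdgfrb counts averaged -0.27 ± 0.51 (SD, n = 12) on the control diet and -0.75 ± 0.32 (SD, n = 12) on the high-fat diet. The difference of -0.47, a ratio 0.721 times that of the controls, had p = 0.01192 in a two-sided permutation test with 100000 resamples. Leaving out any single library gave -0.56 to -0.39 with permutation p-values from 0.00122 to 0.02328. In the set with Xist above 1000 counts the difference was -0.65 (exact permutation p = 0.045455, n = 6 per diet), and within the others it was -0.29 (exact permutation p = 0.125541, n = 6 per diet). A difference of the 2 sets in this ratio was not tested.

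**Figure D2:**
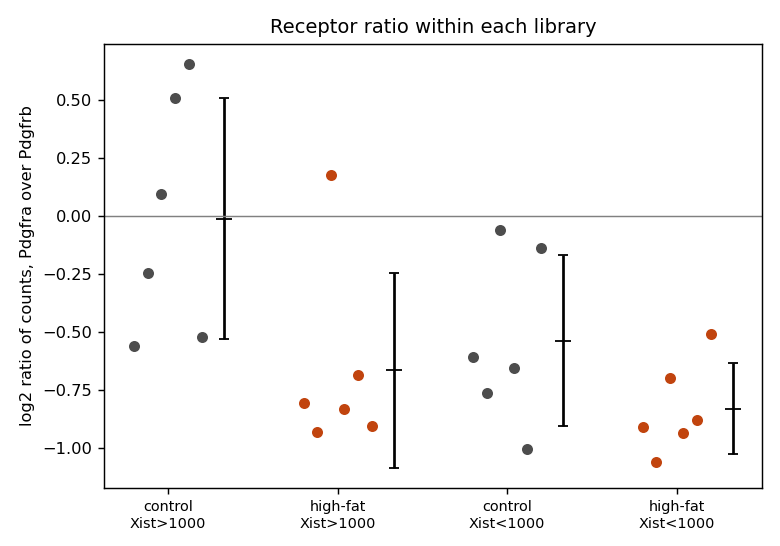
The vertical axis is the log2 ratio of Pdgfra to Pdgfrb counts in each library, with 1 point per library and the mean ± SD of each 6 libraries at the right. The mean was -0.27 over the control libraries and -0.75 over the high-fat libraries, and the groups overlap.

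The diet effect was next taken apart by set of libraries. With Xist below 1000 counts all 6 PDGF genes were called higher, against 14.4% of all genes, and 5 of 6 did not overlap between the diets, against 12.6%. With Xist above 1000 counts 4 of 6 were called higher, against 2.9% of all genes, and 2 of 6, Pdgfb and Pdgfc, did not overlap, against 3.51%. Both shares were above the background in both sets.

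Pdgfra differed in its response between the sets. With Xist above 1000 counts it was 9.14 ± 2.38 CPM (SD, n = 6) on the control diet and 10.9 ± 1.18 CPM (SD, n = 6) on the high-fat diet. That log2 fold change of 0.27 (SE 0.15) had an adjusted p of 0.265 in edgeR and was not called. With Xist below 1000 counts it was 7.04 ± 2.32 CPM (SD, n = 6) and 20.4 ± 7.41 CPM (SD, n = 6), a log2 fold change of 1.54 (SE 0.25, adjusted p = 0.000302, edgeR), without overlap. The difference between the log2 fold changes, tested as an interaction, was 1.27 (SE 0.30, adjusted p = 0.008434, edgeR), and 4.04% of all genes had a called interaction, 2.57% in this direction. It kept its sign when any single library was left out, at 1.08 to 1.41, but its adjusted p rose above 0.01 in 15 of 24 such fits, to at most 0.018069, so the call sits at the threshold.

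For the other genes the interaction was not called. Pdgfd came next, with log2 fold changes of 0.08 (SE 0.29) and 1.76 (SE 0.42) with Xist above and below 1000 counts and an interaction of 1.67 (adjusted p = 0.0445, edgeR). The interaction was 1.14 for Pdgfb, 0.75 for Pdgfc and 0.80 for Pdgfrb, with adjusted p-values in edgeR from 0.0571 to 0.149. Of the fits with 1 library left out, Pdgfb and Pdgfc passed only without control replicate 11, at 1.66 and 0.98 on the log2 scale. Pdgfa had the opposite sign, -0.24 (adjusted p = 0.601, edgeR), which became 0.11 when libraries were scaled by their totals alone.

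On the high-fat diet alone, the libraries with Xist below 1000 counts were called higher than those with Xist above for 3 PDGF genes, against 2.97% of all genes. These were Pdgfb (log2 difference 1.21, adjusted p = 0.008181), Pdgfra (0.90, adjusted p = 0.004605) and Pdgfrb (1.01, adjusted p = 0.005311) in edgeR. Pdgfc (0.63, adjusted p = 0.0136), Pdgfd (1.18, adjusted p = 0.0286) and Pdgfa (0.65, adjusted p = 0.010018) had the same sign in edgeR without a call. For Pdgfb the means were 4.55 ± 0.923 CPM and 10.5 ± 5.10 CPM (SD, n = 6 each), and for Pdgfrb 17.7 ± 3.90 CPM and 35.6 ± 10.2 CPM (SD, n = 6 each).

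**Figure D3:**
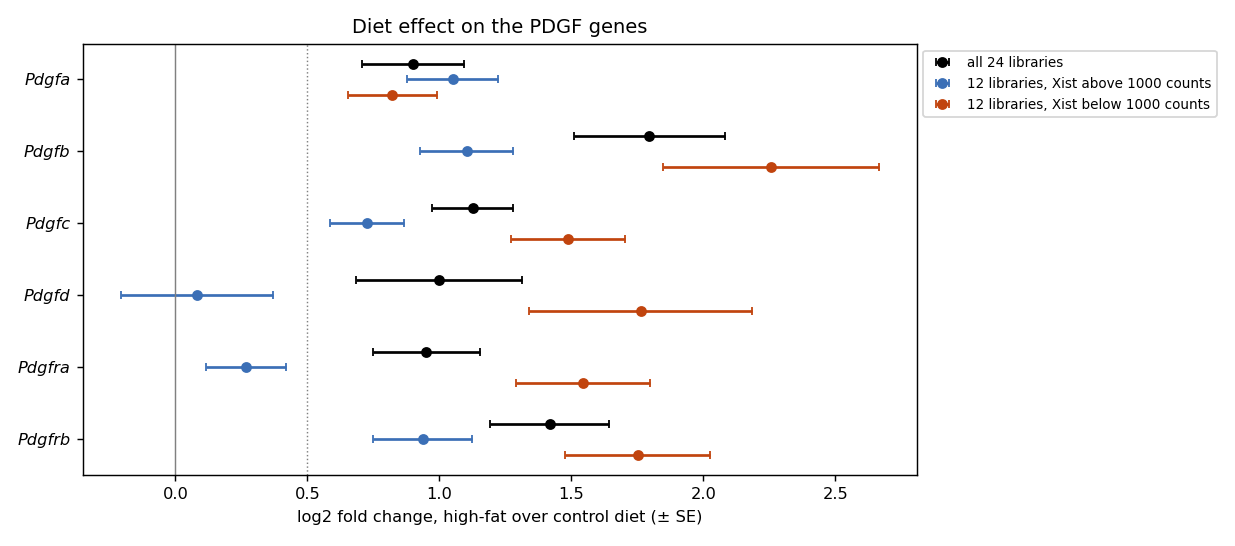
Points are log2 fold changes of the high-fat over the control diet with SE bars, for all 24 libraries and for the 12 libraries with Xist above or below 1000 counts, and the dotted line marks the 0.5 needed for a call. For Pdgfra the sets gave 0.27 and 1.54, and for Pdgfa 1.05 and 0.82.

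Next to the diet, the libraries of a group varied together. Correlations were computed on log2(CPM + 1) after the mean of each diet and set was removed, with permutation within those 4 groups of 6 and adjustment over 21 pairs of the 6 genes and Col1a1, the main scar collagen. The points share the scaling of their library. Pearson's r was positive for all 21 pairs, from 0.32 to 0.85, and 14 pairs had an adjusted p of at most 0.05. Spearman's rho passed for 7 pairs.

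Pdgfb and Pdgfrb were the closest pair, with r = 0.85 (adjusted permutation p = 0.00021) and rho = 0.81 (adjusted permutation p = 0.00042). Dropping the 2 libraries farthest from the Pdgfb median left r at 0.73. Within the high-fat diet r was 0.94 and within the control diet 0.80. Pdgfb also went with Col1a1 (r = 0.78, rho = 0.79, adjusted permutation p = 0.00021 and 0.00042), as did Pdgfrb (r = 0.74, rho = 0.66, adjusted permutation p = 0.0014 and 0.009135). With those farthest 2 dropped for each gene, r with Col1a1 was 0.79 for Pdgfb and 0.62 for Pdgfrb. Of the 14 pairs, 6 had an unadjusted permutation p above 0.05 once the 2 farthest libraries were dropped. They were Pdgfb with Pdgfc, Pdgfd and Pdgfra, Pdgfd with Pdgfra and Col1a1, and Pdgfra with Pdgfrb. For Pdgfd and Col1a1 r did not fall, at 0.38 with all libraries and 0.41 without those 2. For the others r fell, to values from 0.12 to 0.44. Within the high-fat diet r with Col1a1 was 0.58 for Pdgfb and 0.65 for Pdgfrb, neither of which passed over the 21 pairs, and within the control diet it was 0.92 and 0.79, which did. By rho, 1 pair passed within the high-fat diet and 0 within the control diet.

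Without high-fat replicate 9, r was lower for every pair among the PDGF genes and higher for each PDGF gene with Col1a1. With Col1a1, r went from 0.78 to 0.91 for Pdgfb and from 0.74 to 0.78 for Pdgfrb. Without this library 7 of 21 pairs passed: Pdgfb with Pdgfrb, Pdgfa with both of these, these 3 with Col1a1, and Pdgfc with Pdgfd. Pdgfra then passed with no gene, and its r with Pdgfrb was 0.60 (adjusted permutation p = 0.012558) with that library and 0.52 (adjusted permutation p = 0.0703) without it. Pdgfc and Pdgfd, the latent ligands, had r = 0.62 (adjusted permutation p = 0.0021) with it and 0.52 (adjusted permutation p = 0.01776) without it.

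**Figure D4:**
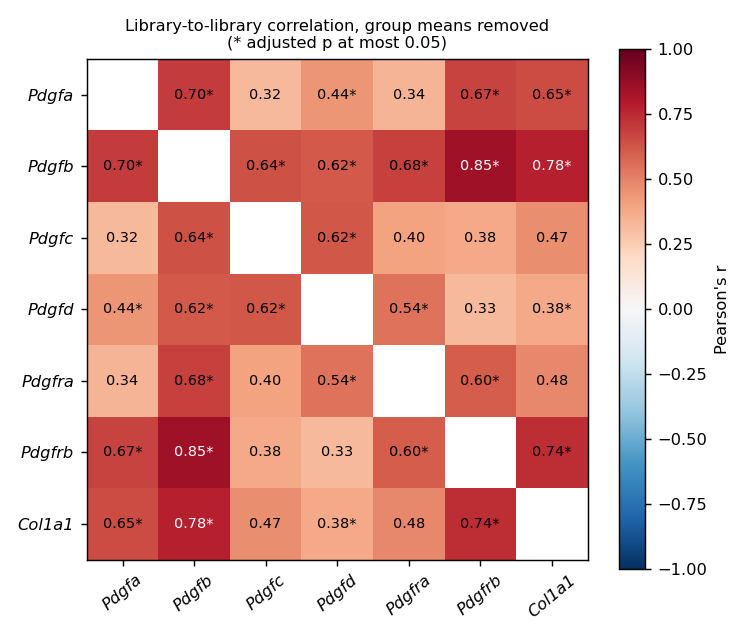
Cells give Pearson's r between libraries (n = 24) for each pair of genes after removal of the mean of each diet and set, colored from -1 to 1, with an asterisk at an adjusted permutation p of at most 0.05. The cell for Pdgfb and Pdgfrb holds the highest value, 0.85.

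The genes most like each member were taken by the same r over the 24 libraries among 10922 genes, as a description. Pdgfrb was most like Bgn (r = 0.95), Ltbp3 (0.93) and Angptl2 (0.91), of which Bgn encodes the matrix proteoglycan biglycan. Pdgfb was most like Igfbp7 (0.91), Fstl1 (0.90) and Col6a3 (0.90), a collagen VI chain. Pdgfra was most like Sparcl1 (0.91), Tcaf1 (0.88) and Eml1 (0.87). For the other ligands the closest genes were Fgd3 (0.80), Nes (0.79) and Fstl1 (0.78) for Pdgfa, Gprc5b (0.81), Cxcl16 (0.78) and Rab31 (0.78) for Pdgfc, and Casp12 (0.88), Trim47 (0.86) and Clstn1 (0.85) for Pdgfd. Fstl1 was near both Pdgfa and Pdgfb. Each gene named in this paragraph was called higher on the high-fat diet, as were 13.2% of all genes tested. The share among the 10922 genes compared was not computed.

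The proteases and binding partners of PDGF rose in part. Of 10 tested, 6 were called higher, against 13.2% of all genes, and none lower. Their median log2 fold change was 1.52 against -0.03 over all genes. Plat, the tissue plasminogen activator that cuts PDGF-C into its active form, went from 0.635 ± 0.627 CPM to 5.83 ± 5.09 CPM (SD, n = 12 each), a log2 fold change of 3.17 (SE 0.46). St14, the membrane protease matriptase, went from 1.22 ± 0.435 CPM to 7.72 ± 9.46 CPM (SD, n = 12 each), a log2 fold change of 2.64 (SE 0.49). St14 also had a called interaction, with log2 fold changes of 0.57 and 3.50 with Xist above and below 1000 counts (adjusted p = 0.00173, edgeR). Thbs1, which encodes the matrix protein thrombospondin-1, had a log2 fold change of 2.01 (SE 0.26). The other 3, named after their values were seen, were Plau, a protease that cuts PDGF-D, at 1.82, the matrix protein gene Sparc at 1.57 and the receptor-like gene Pdgfrl at 1.46. Furin and Lrp1 both had a log2 fold change of -0.21, Nrp1 had -0.41 and Nrp2 had -0.02, and none of these was called. Limma-voom called 4 of the 10 higher and DESeq2 called 6, and without the 3 libraries that stood apart 5 were called.

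Inside the cell, 5 of 22 adaptors and proximal effectors and 1 of 14 genes of the kinase cascade were called in either direction, beside 18.2% of all genes. Among the adaptors and effectors 3 rose, the kinase genes Src (log2 fold change 1.42, SE 0.20) and Fyn (0.54, SE 0.14) and the adaptor gene Nck2 (0.94, SE 0.20), and the median log2 fold change was -0.08. Without the 3 libraries that stood apart Fyn had a log2 fold change of 0.498, under the 0.5 needed, and was not called. Yes1, a relative of Src, fell by 0.59 and Sos1, the exchange factor that activates Ras, fell by 0.56 on the log2 scale. In the kinase cascade only Mapk3, which encodes ERK1, was called (log2 fold change 0.58, SE 0.10), and the median was -0.17. Among 15 negative regulators, which include phosphatases, Sprouty genes and Socs3, edgeR called none, although 6 had an unadjusted p under 0.05 upward and 2 downward. DESeq2 called 2 of these 15 higher and limma-voom called none. Their median log2 fold change was 0.18.

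Immediate early genes are switched on by growth factor signaling and many other stimuli. Of 10 tested, 5 were called higher, against 13.2% of all genes, and none lower. Their median log2 fold change was 0.99. The largest were Egr2, Fosb (log2 fold change 1.58, SE 0.35) and Ier3 (1.44, SE 0.28). Egr2 went from 0.352 ± 0.289 CPM to 2.39 ± 0.980 CPM (SD, n = 12 each), a 6.50-fold rise. Every high-fat library lay above every control, as for 1.48% of all genes. Its control level rests on 80 counts over the 12 libraries together. Fosb was at 0 to 0.470 CPM on the control diet and 0.213 to 1.25 CPM on the high-fat diet, so a few counts set its level. Jun and Fos, the other called genes of the list, had log2 fold changes of 1.27 and 1.16. DESeq2 called 6 of these 10 higher and limma-voom called 7. Across all 5 pathway lists, 15 of 71 genes tested were higher and 2 were lower, against 13.2% and 4.99% of all genes. Their median log2 fold change was 0.07.

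Of 15 relatives of the PDGF genes 4 were called higher and 1 lower, against 13.2% and 4.99% of all genes. Their median log2 fold change was 0.31. Of 5 VEGF ligands, Vegfc, a lymphatic growth factor, rose by 0.65 on the log2 scale (SE 0.09) and Vegfa, the main growth factor of blood vessels, fell by 0.56. The edgeR test called 0 of the 3 VEGF receptor genes, with 1 higher and 1 lower at an unadjusted p under 0.05 and none called by DESeq2 or limma-voom. Among 7 genes of the receptor class that holds the PDGF receptors, and their ligands, 3 rose: the receptor genes Flt3 (1.45, SE 0.31) and Csf1r (0.998, SE 0.21), and Csf1 (0.91, SE 0.14), the ligand of Csf1r and the growth factor of macrophages. Csf1r had a called interaction with the set, at log2 fold changes of 0.36 and 1.88 (adjusted p = 0.000782, edgeR).

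**Figure D5:**
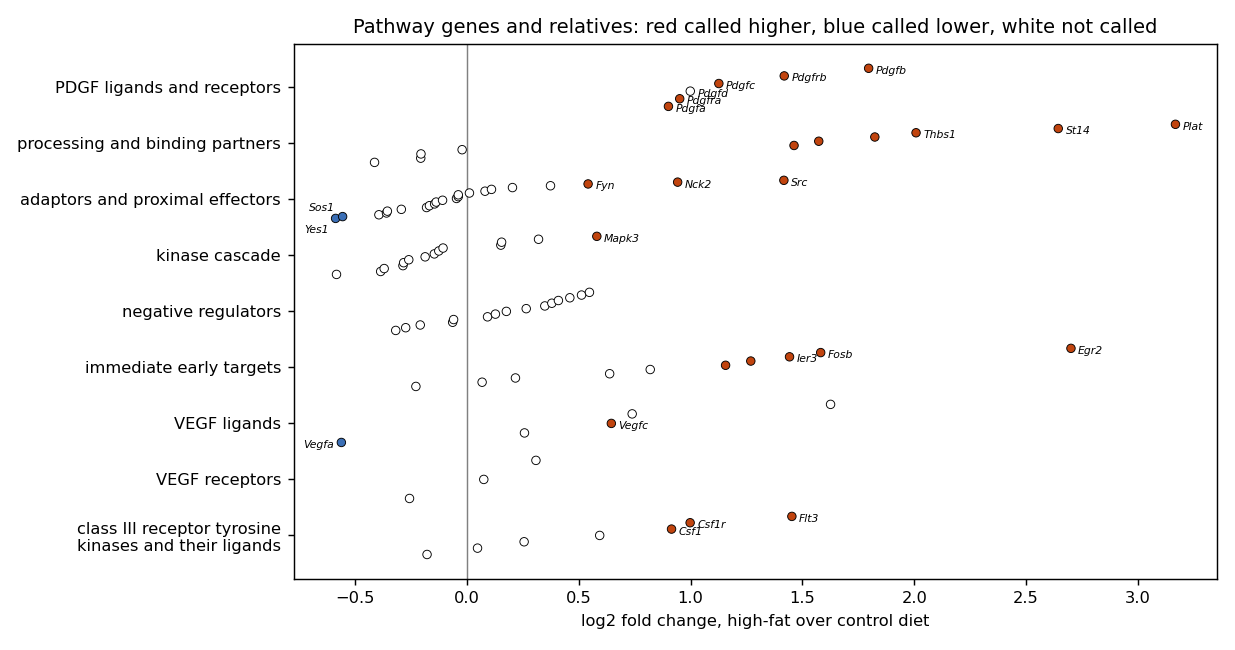
Each point is the log2 fold change of 1 gene, in rows by list, red for genes called higher, blue for genes called lower and white for genes not called, with the names of the PDGF genes and of the largest called genes. The processing list reaches 3.17 at Plat, and the negative regulators lie without a call around a median of 0.18.

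Cell type markers moved beside the PDGF genes, and their part in the result was not tested. Of 10 stellate cell markers 5 were called higher, against 13.2% of all genes, at a median log2 fold change of 0.49. Their summed level was 247 to 574 CPM on the control diet and 325 to 489 CPM on the high-fat diet, which overlap. The 3 most abundant over both diets were Ecm1 (log2 fold change -0.28, not called), Reln (0.13, not called) and Colec11 (0.56, called). On the control diet alone Vipr1 (-0.39, not called) stood above Colec11, at 49.8 against 36.1 CPM. Of 9 myofibroblast markers 7 were called higher, with a sum of 48.5 to 245 CPM on the control diet and 221 to 702 CPM on the high-fat diet. Col1a1 alone went from 13.6 ± 14.2 CPM to 119 ± 68.2 CPM (SD, n = 12 each), a log2 fold change of 3.12 (SE 0.42). High-fat replicate 9, highest for all 6 PDGF genes, and control replicate 11, the highest control for 3 of them, were the highest of their diets in this sum and in the portal fibroblast, vascular smooth muscle and monocyte-derived macrophage sums. The monocyte-derived macrophage sum was set mostly by 1 gene, Spp1, so ranks in it need not hold for its other markers. Replicate 9 was also the highest high-fat library in the cholangiocyte sum (205 CPM) and the lowest in the hepatocyte, endothelial and resident macrophage sums.

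Markers of other cell types, some of which make PDGF ligands or receptors, moved too. Over all genes, 13.2% were called higher and 4.99% lower. Portal fibroblast markers were called higher in 4 of 7 cases (sum 9.16 to 24.6 CPM and 18.0 to 81.2 CPM) and vascular smooth muscle markers in 1 of 5. Monocyte-derived macrophage markers were higher in 6 of 6 cases, with a median log2 fold change of 2.80 and a sum of 45.0 to 161 CPM on the control diet and 123 to 947 CPM on the high-fat diet. Spp1, named after its values were seen, had the highest mean of this list, 43.5 CPM on the control diet and 268 CPM on the high-fat diet. The next highest on the high-fat diet was Gpnmb at 66.7 CPM, so the sum follows mostly Spp1. Resident macrophage markers were higher in 2 of 6 cases, endothelial markers in 1 of 9 and platelet markers in 1 of 7, and cholangiocyte markers in 4 of 6. Hepatocyte markers fell in 6 of 8 cases, at a median of -0.73 on the log2 scale. No marker of any list was at 0 in every library.

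The marker sums were also taken by set of libraries, and differences between the sets in them were not tested. The mean sum of the stellate cell list went from 474 to 443 CPM between the diets with Xist above 1000 counts and from 308 to 385 CPM with Xist below. Ecm1, at a mean of 185 CPM over all control libraries, weighs most in this sum. With Xist above 1000 counts Ecm1 (-0.33) and Vipr1 (-0.45) had negative log2 fold changes, and every other marker of the list had a positive one. For the myofibroblast list these means were 78.9 and 279 CPM, and 91.2 and 609 CPM. The median log2 fold change of the 10 stellate cell markers was 0.25 with Xist above 1000 counts and 0.78 with Xist below, and none of the 10, and none of the 9 myofibroblast markers, had a called interaction in edgeR (lowest adjusted p 0.0222, for Colec11, and 0.0837, for Lox).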

How the data were processed

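RNA-Seq libraries of whole liver (24) had been made from poly(A)-selected RNA. The submitters' processing notes name bcl2fastq, STAR 2.7.3a and mm10. The study's methods name the exon quantification pipeline and PISCES for reads aligned to the human genome. For mouse reads the counting program and the annotation are not given in the sources used here. The authors deposited whole-number read counts per Ensembl gene, without normalization. Symbols and exon lengths were taken from GENCODE M21 (GRCm38), which matched 51745 of 56205 IDs, and the rest held 0.0723% of the counts. No 2 libraries of a diet agreed within sampling noise (lowest chi-square per degree of freedom 10.1 and 18.3).

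Groups came from the sample titles. Diet effects were tested with edgeR 4.0.16 in R 4.3.3 (quasi-likelihood, TMM, no term besides diet) on the 17913 genes that had a count in 12 or more libraries, with Benjamini-Hochberg adjustment, and the fit was tested on simulated data. A diet by set term gave the interaction, and within a set its 12 libraries were fitted. SE is the absolute log2 fold change over the square root of F. The thresholds are those of the study's methods, which used DESeq2 with sex as a covariate for the human livers. Receptor counts had 0.5 added before the ratio. Permutation tests were two-sided (100000 resamples, exact for smaller sets; Python 3.11.15). Sequences are from RefSeq. Of the 6 members 4 had a promoter entry, and both entries of Pdgfa overlapped annotated exons.

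The genes and lists were chosen with earlier results of these data known. Named were the 6 members, up to 3 called genes with the largest change in each direction per pathway or relatives list, the 3 most abundant of the stellate cell markers (Vipr1 was added after its values were seen), Col1a1, and the 3 genes with the highest r to each member among genes with a mean of at least 50 counts. Pdgfap1 had no row by that symbol, and Fosl1 and Gp6 had too few counts. Alternatives were DESeq2 1.42.0, limma-voom (limma 3.58.1), other scalings, filters and thresholds, a replicate block, a set covariate and each library left out. Added after seeing the data were the fits without high-fat replicate 9 and control replicates 10 and 11, the interaction with each library left out, the comparison of the sets within a diet and the test of neighbours in the order of levels.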

Additional observations from a re-analysis of the deposited data

Results flagged for a closer look

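The diet effect on Pdgfra differed between the 2 sets of libraries by a test of the difference itself. The interaction of 1.27 on the log2 scale (SE 0.30, adjusted p = 0.008434, edgeR) sets a log2 fold change of 0.27 with Xist above 1000 counts against 1.54 with Xist below. With 1 library left out at a time, its adjusted p in edgeR was above 0.01 in 15 of 24 fits, at most 0.018069. On the high-fat diet Pdgfra was higher with Xist below 1000 counts by 0.90 on the log2 scale (adjusted p = 0.004605, edgeR), and on the control diet the difference was -0.36 (adjusted p = 0.341, edgeR). Each diet and set held 6 libraries, and the set coincides with the replicate numbers, so the set cannot be told apart from anything else that differed between those libraries.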

How the results depend on the processing

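Counts limit the ligands most, since Pdgfb had as few as 11 counts and Pdgfd 15 in a control library. At an absolute log2 fold change over 1, 3 of the 6 PDGF genes were called, and Pdgfa (0.90) and Pdgfra (0.95) were not. Pdgfd was called with DESeq2 (1.02), with library totals (1.36), in the libraries with Xist below 1000 counts (1.76) and at an adjusted p of at most 0.05 (0.998). Pdgfra was not called with Xist above 1000 counts (0.27). The receptor ratio with Xist below 1000 counts (-0.29) did not pass. Scaling by library totals moved the median log2 fold change of all genes to 0.26 from -0.03. It gave 28 pathway genes higher and 0 lower and 9 relatives higher and 0 lower, since Sos1 (-0.29), Yes1 (-0.31) and Vegfa (-0.30) no longer passed. The interaction of Pdgfa became 0.11 and that of Pdgfc 1.10, which was called. The cause was not tested. Leaving out each library gave log2 fold changes of 0.83 to 1.004 for Pdgfa, 1.56 to 2.01 for Pdgfb, 1.06 to 1.21 for Pdgfc, 0.66 to 1.10 for Pdgfd, 0.81 to 1.03 for Pdgfra and 1.29 to 1.57 for Pdgfrb, with 5 to 6 genes called. Pdgfd was called in 3 of these 24 fits. The interactions ran from 1.08 to 1.41 for Pdgfra, 0.85 to 1.66 for Pdgfb, 0.65 to 0.98 for Pdgfc, 1.20 to 1.87 for Pdgfd, 0.65 to 1.11 for Pdgfrb and -0.37 to -0.13 for Pdgfa. Correlated pairs numbered 7 without high-fat replicate 9, 11 with a pseudocount of 0.1 and 21 with library totals.

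The replicate numbers did not pair the libraries. Libraries of the same number deviated together by a correlation of -0.0935 for number 9 and 0.155 to 0.541 for the others, and 2 of the 12 numbers correlated best with their own. A fit with the replicate block called 2063 genes higher and 844 lower, against 2372 and 894, and 5 PDGF genes were called, with log2 fold changes of 0.94 for Pdgfa, 1.69 for Pdgfb, 1.11 for Pdgfc, 0.78 for Pdgfd, 0.89 for Pdgfra and 1.37 for Pdgfrb. The block changed the call of Fosb alone among the genes named from the lists (adjusted p = 0.0135), and the receptor ratio had an exact p of 0.001953 with it.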

Other observations

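Spry1, a Sprouty gene that dampens receptor tyrosine kinase signaling, was not called for the diet (log2 fold change 0.51, adjusted p = 0.0160, edgeR) but had a called interaction of 1.14 (adjusted p = 0.00438, edgeR), with log2 fold changes of -0.02 and 1.12. It was named after its values were seen. Of the 71 pathway genes tested 4 had a called interaction, against 4.04% of all genes.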
